A study of Mus musculus with 4 samples.

Results

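Runx3 bound 1820 promoter regions of low CpG content among the 15121 Runx3 peaks of splenic CD4+ dendritic cells (CD4+ DC), which was 12.04% of the list. A peak entered this set when its centre lay within 1 kb of the transcription start site (TSS) of any transcript of a protein-coding gene and when the mm9 sequence of the whole peak had a GC content below 55% or a ratio of observed to expected CpG dinucleotides below 0.6. Peaks within 1 kb of start sites of protein-coding genes on opposite strands, 701 in all, were left out. Of the rest, 2965 peaks lay at protein-coding start sites but passed both composition limits (CpG-rich promoter peaks), and 9635 had no protein-coding start site within 1 kb.

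The study mapped Runx3 binding in CD11chiMHCII+CD4+ DC sorted from spleen, and each ChIP used cells pooled from approximately 15 mice. The 4 libraries were 2 immunoprecipitations with a polyclonal antibody raised in-house against Runx3 (Runx3 IP1 and IP2) and 2 input controls of fragmented whole-cell chromatin (input1 and input2). The strain was labelled C57BL/6 in 3 libraries and C57BL/7 in input2, no library carried a treatment or mutation, and the ages of the mice were not given. The authors deposited 1 peak list for the whole experiment, so each peak had 1 score and no value per replicate. No spread between replicates could be measured, and every interval below is a 95% interval for counting error only, by the Wilson method for a share and the Newcombe method for a difference of shares. Neighbouring peaks share sequence and chromatin, so these intervals take peaks as more independent than they are.

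RUNX proteins (Runx1, Runx2 and Runx3) are transcription factors that bind DNA through the runt domain together with the partner protein Cbfb, which binds no DNA itself. Their preferred site is read here as the hexamer TGTGGT, or ACCACA on the other strand, and Runx3 is known as a regulator of dendritic cell and T cell differentiation. Mammalian promoters fall broadly into CpG-rich ones, typical of genes used in most cells, and CpG-poor ones, typical of genes restricted to a tissue. In leukocytes many surface receptors are transcribed from CpG-poor promoters where PU.1, an ETS-family factor, is known to bind.

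The sequences below show the RUNX hexamers that the values turn on, at the highest-scoring CpG-poor promoters and at receptor genes and an MHC-II gene. Each is 100 bases of the NCBIM37 (mm9) genome around the hexamer nearest the peak centre, written 5′ to 3′ on the strand of the gene, with TGTGGT or ACCACA in capitals. The stretches overlap no annotated exon. The first set holds 8 of the 12 highest-scoring peaks, and the other 4 (Runx1, Cd300lf, Dhrs9 and Atg7) are not printed because the stretch overlaps an exon.
Glipr1 (chr10:111439773-111439872, minus strand): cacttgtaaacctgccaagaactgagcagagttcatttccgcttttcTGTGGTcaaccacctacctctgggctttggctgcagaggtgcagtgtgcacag
Dmwd (chr7:19663214-19663313, plus strand): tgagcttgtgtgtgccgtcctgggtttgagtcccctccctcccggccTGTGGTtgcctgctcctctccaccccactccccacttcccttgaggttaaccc
Runx3 (chr4:134676379-134676478, plus strand): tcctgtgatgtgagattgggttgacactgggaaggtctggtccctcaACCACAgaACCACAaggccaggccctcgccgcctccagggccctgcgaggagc
Stat3 (chr11:100758983-100759082, minus strand): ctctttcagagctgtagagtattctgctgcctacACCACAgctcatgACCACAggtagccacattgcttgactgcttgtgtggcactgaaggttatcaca
Lmna (chr3:88314070-88314169, minus strand): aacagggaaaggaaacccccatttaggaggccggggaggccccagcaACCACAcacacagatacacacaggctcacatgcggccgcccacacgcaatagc
Copg (chr6:87837667-87837766, plus strand): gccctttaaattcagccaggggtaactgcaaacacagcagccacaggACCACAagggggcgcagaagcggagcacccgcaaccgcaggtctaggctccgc
Tbc1d4 (chr14:101862448-101862547, minus strand): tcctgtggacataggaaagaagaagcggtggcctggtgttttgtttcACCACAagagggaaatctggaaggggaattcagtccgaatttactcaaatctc
Csnk1g2 (chr10:80085093-80085192, plus strand): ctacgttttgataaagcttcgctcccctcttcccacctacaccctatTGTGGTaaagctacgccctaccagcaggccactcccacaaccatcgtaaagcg

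The second set holds myeloid receptor genes and an MHC-II gene, where the scores were lower.
Clec12a (chr6:129300060-129300159, plus strand): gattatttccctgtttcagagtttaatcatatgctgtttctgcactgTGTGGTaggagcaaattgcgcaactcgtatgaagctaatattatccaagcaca
Cx3cr1 (chr9:119977416-119977515, minus strand): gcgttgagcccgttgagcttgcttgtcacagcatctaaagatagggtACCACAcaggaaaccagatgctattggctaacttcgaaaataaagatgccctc
Itgam second peak (chr7:135207055-135207154, plus strand): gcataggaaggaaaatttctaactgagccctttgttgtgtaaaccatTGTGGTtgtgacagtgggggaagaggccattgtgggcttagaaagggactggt
H2-Ab1 (chr17:34399610-34399709, plus strand): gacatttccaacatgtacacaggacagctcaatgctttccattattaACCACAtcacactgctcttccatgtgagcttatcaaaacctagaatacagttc

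All 12 highest-scoring members held at least 1 hexamer. In the Runx3 stretch 2 hexamers lay side by side, both as ACCACA on the strand of the gene, from 188 to 89 bp upstream of its start site. The Stat3 stretch, which lay 760 to 859 bp downstream of an alternative start site, also held 2. The stretches of Glipr1, Dmwd, Copg and Tbc1d4 all lay within 200 bp upstream of a start site.

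The strongest binding at CpG-poor promoters was found at genes of diverse function. The score of a peak is the number the MACS2 peak caller gave it, and a higher score is taken here as stronger enrichment of the ChIP over the input. Its unit is not given in the sources used here. Glipr1, which encodes a protein of the CAP superfamily, had a score of 264, the second highest of the whole list. The peak at Dmwd, a WD-repeat gene beside Dmpk, followed with 227 and ranked 5. The peaks of Runx1 (156) and Runx3 (151) ranked 25 and 29, so that genes of the RUNX family themselves were among the most strongly scored promoters.

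The peak of Stat3, the transcription factor downstream of Flt3 ligand and IL-10-type cytokines, scored 146. Lmna, which encodes the nuclear lamins A and C, scored 144, and Copg, a subunit of the COPI vesicle coat, scored 141. The peak at Tbc1d4, a GTPase-activating protein of RAB proteins, scored 133. Cd300lf, an inhibitory receptor of myeloid cells, scored 129. Dhrs9, a short-chain dehydrogenase of retinoid metabolism, scored 123. Csnk1g2, a casein kinase, scored 121, and Atg7, the activating enzyme of autophagy, scored 120. These 12 peaks ranked between 2 and 83 of the 15121.

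As a class, however, CpG-poor promoter peaks did not have higher scores than the other peaks. Their median score was 11.3, with quartiles of 7.16 and 22.3 and a range of 1.37 to 264, and the median was 12.7 for CpG-rich promoter peaks and 12.1 for the whole list. Scores at or above the upper quartile of the list (23.2) were found for 439 members, or 24.1% (22.2 to 26.1), where 25.4% of all peaks reached that score. The share in CpG-rich promoter peaks was 24.4%, and the difference of -0.23 percentage points had an interval from -2.71 to 2.29. Among the 100 highest scores were 14 members and 7 CpG-rich promoter peaks, a difference of 0.53 percentage points (0.13 to 1.07) between the shares of each class. Members made up 12.04% of the list, close to their 14 of the 100, and CpG-rich promoter peaks 19.6%, above their 7. Another 79 of the 100 had no protein-coding start site within 1 kb, a class that made up 63.7% of the list.

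**Figure D1:**
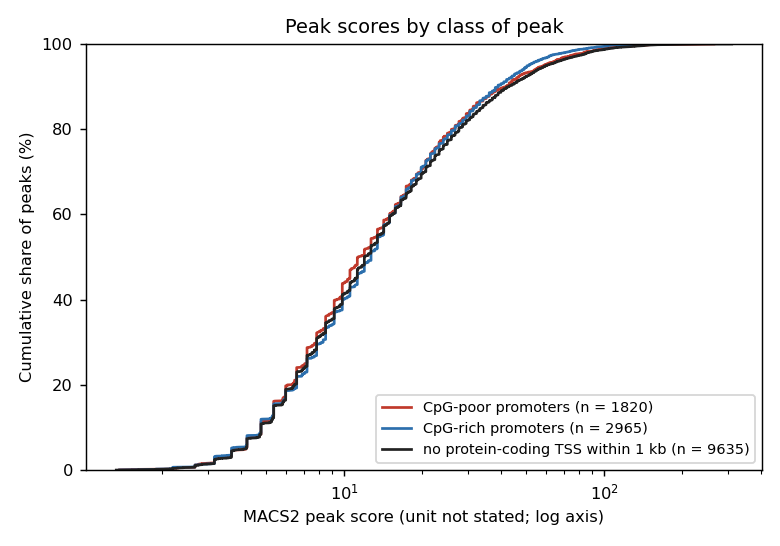
Cumulative share of peaks (y axis, %) by MACS2 peak score (x axis, log scale, unit not stated) for peaks at CpG-poor promoters, at CpG-rich promoters and with no protein-coding start site within 1 kb. The 3 curves run close together with medians of 11.3, 12.7 and 11.98, and the CpG-rich curve ends first, at a score of 176.

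Score rose with the width of a peak. Over the 1820 members Spearman's rho between score and width was 0.70, given as a description across peaks of 1 pooled call. With GC content rho was 0.01, against -0.20 in CpG-rich promoter peaks. The median width was 407 bp, against 438 bp in CpG-rich promoter peaks. The widest members were not the highest scored: the peak of Zfp207, a zinc-finger gene of the mitotic spindle, spanned 1399 bp with a score of 50.7, and that of Ect2, an exchange factor of cytokinesis, 1267 bp with a score of 19.8. Peaks of 1376 bp at Avpi1, 1307 bp at Prdx6, a peroxiredoxin, and 1228 bp at Soat2, a cholesterol acyltransferase, made up the rest of the 5 widest, with scores of 94.4, 48.3 and 22.5.

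The 1820 members met the composition rule in different ways. Both limits held for 934 peaks, the GC limit alone for 436 and the CpG limit alone for 450. The median GC content was 52.1% and the median CpG ratio 0.44, values that the rule itself selects. The peaks closest to the GC limit were those of Vcp (54.99%) and Psmb1 (54.98%) inside it and Pot1a and Asxl1 (both 55%) outside it. At the CpG limit the closest were Wdr61 (0.5997) and Orai2 (0.5994) inside and Ccdc88c (0.6002) and Socs1 (0.6008) outside.

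**Figure D2:**
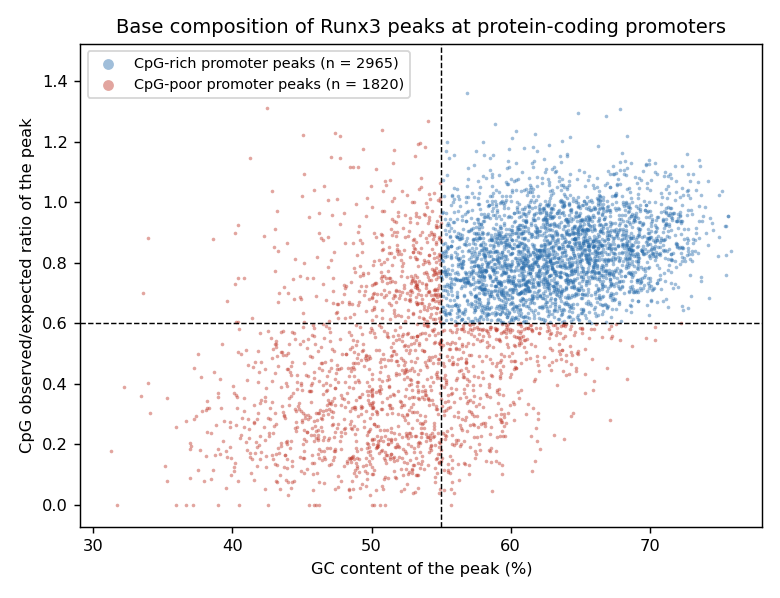
GC content (x axis, %) against the observed/expected CpG ratio (y axis) of each promoter peak, with the limits of 55% and 0.6 as dashed lines. Each point is a peak; the 1820 CpG-poor promoter peaks fill the area left of or below the lines and merge with the 2965 CpG-rich ones without a gap at either limit.

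A low CpG content of the peak did not always mean a CpG-poor start site. The window from 250 bp upstream to 50 bp downstream of the nearest start site was itself CpG-poor, by the same limits, for 1258 members (69.1%) and CpG-rich for 562 (30.9%). Batf3, a factor of dendritic cell development, and Ifngr2, a chain of the interferon-gamma receptor, were among the latter: the start site of Batf3 had a GC content of 75.7% and a CpG ratio of 0.91, and that of Ifngr2 74.3% and 0.87. The label of a CpG-poor promoter therefore applies to the bound sequence, and in 30.9% of members not to the start site beside it. Members at a CpG-rich start site lay farther from it, at a median of 452 bp against 157 bp.

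CpG-poor promoter peaks were less tightly placed on the start site than CpG-rich ones. The median distance between centre and nearest start site was 238.5 bp, against 87 bp in CpG-rich promoter peaks, and the centre lay within 100 bp of it in 28.6% and 54.9%, a difference of -26.3 percentage points (-29.0 to -23.6). Members at a CpG-poor start site lay at a median of 157 bp and those at a CpG-rich one at 452 bp. The class is set by the sequence of the peak and not of the start site, and the part of this in the difference was not tested. The centre lay upstream in 61.5% (59.2 to 63.7), close to the 62.5% in CpG-rich promoter peaks. The start site fell inside the peak for 874 members (48.0%), and these had a median score of 14.2. Of them 30.7% reached the upper quartile of score, against 18.1% of the members that did not cover a start site, a difference of 12.6 points (8.66 to 16.5). Their median width was 451 bp where that of all members was 407 bp, and the part of width in the difference was not tested. By annotation of the centre, 745 members lay between genes, 698 in introns, 255 in exons of untranslated regions and 122 in other exons.

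Start sites inside genes were common. The nearest start site was exactly the outermost annotated start of the gene for 1009 members (55.4%), against 67.8% of CpG-rich promoter peaks (difference -12.4 points, -15.2 to -9.51). When a start site up to 100 bp from the outermost one was counted with it, an alternative chosen after seeing the data, the shares were 62.4% and 80.8% (difference -18.4 points, -21.0 to -15.7). Among the 12 highest scores the nearest start site lay farther than that from the start of the gene at Dmwd (1744 bp), Stat3 (41012 bp) and Tbc1d4 (145968 bp), and within it at the other 9. Another peak of the list lay within 10 kb of 52.5% of members and of 33.9% of CpG-rich promoter peaks, a difference of 18.6 points (15.8 to 21.5).

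The members touched 1651 of 22225 protein-coding gene symbols, which is 7.43% of them, and CpG-rich promoter peaks touched 2880 or 13%. Of the 1651 genes, 222 also had a CpG-rich promoter peak, and 11 members lay near more than 1 gene. Counted by promoter, in the window of 300 bp at the start of each of 22367 genes, binding was less frequent at CpG-poor promoters: 1676 of 13997 had a peak of any class within 1 kb (11.97%, 11.4 to 12.5), against 3373 of 8370 CpG-rich promoters (40.3%, 39.3 to 41.4). The background over all promoters was 22.6%, and the difference was -28.3 points (-29.5 to -27.1). With only peaks at or above the upper quartile of score counted, it was -8.10 points.

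A total of 161 genes had 2 or more members and 18 had 3 or more. Mkl1, a coactivator of serum response factor, had 4, each at another start site, with scores of 15.4, 19.8, 27.5 and 28.6. Laptm5, a lysosomal protein of leukocytes, had 3 members with scores of 12.7, 53.0 and 63.6. Nfkb1, the gene of the p105/p50 subunit of NF-kappaB, had scores of 13.4, 30.0 and 95.6, and Sema4d, a semaphorin of immune cells, of 7.84, 30.1 and 95.8. At Runx1 the scores were 4.79, 7.84 and 156. At Runx1 the high score rested on 1 start site and both other peaks were below the class median, whereas Laptm5, Nfkb1 and Sema4d each had 2 peaks above the upper quartile of the list.

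The other genes with 3 members were Aim2, a sensor of cytosolic DNA, Unc93b1, the chaperone of nucleic acid-sensing Toll-like receptors, Pik3cd, the leukocyte PI3-kinase catalytic subunit, Tcfeb, a regulator of lysosomal genes, Elmo1, an adaptor of Rac activation, Cd82, a tetraspanin, Coro1c, a coronin of the actin cytoskeleton, and Plec, the cytolinker plectin, together with Atp8b4, Dmpk, Evi2a, Fam134b and Spag9. The highest score was 24.1 in Unc93b1, 20.4 in Pik3cd, 19.8 in Tcfeb and 23.2 in Cd82. All 3 peaks of Aim2 were below the class median, at 4.23, 7.84 and 8.60.

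The RUNX hexamer was present in 934 of the 1820 members, 51.3% (49.0 to 53.6), where 54% of all 15121 peaks held it. It was found in 23.9% (22.4 to 25.5) of CpG-rich promoter peaks and in 65.7% of peaks with no protein-coding start site. CpG-poor promoter peaks thus stood between these classes, 27.4 percentage points above the first (24.6 to 30.1) and with a difference of -14.3 points to the second (-16.8 to -11.9). Since the rule selects for A and T, the shares were also compared at like GC content where both classes occur. Between 55 and 60% GC the hexamer was in 48.1% of 289 members and in 32.6% of 792 CpG-rich promoter peaks (difference 15.5 points, 8.92 to 22.1), and between 60 and 65% GC in 40.9% of 132 and 24.7% of 1091 (16.3 points, 7.81 to 25.1). Above 55% GC the members are those under the CpG limit alone, so these groups are still split by CpG ratio, and members below 55% GC have no CpG-rich counterpart.

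**Figure D3:**
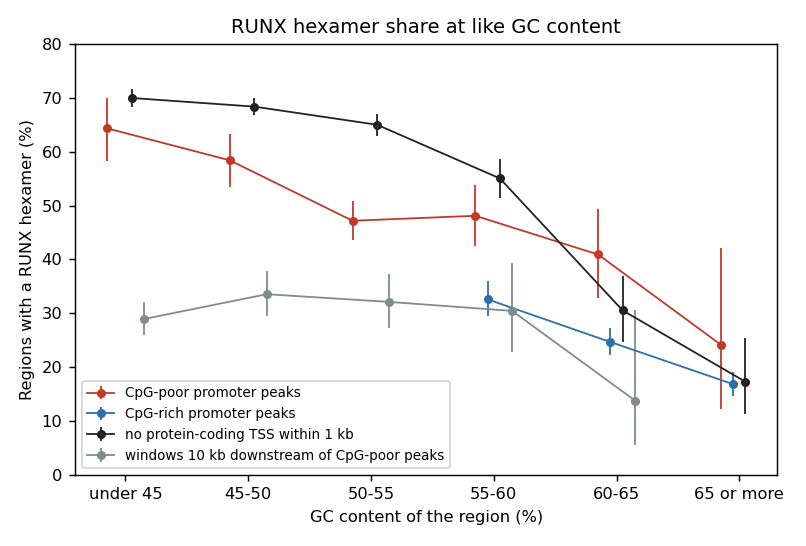
Share of regions with a RUNX hexamer (y axis, %) by GC content of the region (x axis, %), with Wilson 95% intervals as bars, for CpG-poor promoter peaks, CpG-rich promoter peaks, peaks with no protein-coding start site within 1 kb and windows downstream of the CpG-poor promoter peaks. The share in CpG-poor promoter peaks fell from 64.3% below 45% GC to 24.1% at 65% or more, and stayed above the windows in each range of GC up to 65%.

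The windows were stretches of the same width 10 kb downstream along the chromosome, free of peaks, which could be drawn for 1786 members. They held the hexamer in 30.5%, against 51.3% of their peaks, a paired difference of 20.8 points (17.7 to 23.8). The median GC content of the windows was 45.8%, lower than that of the peaks. The same comparison gave -10.8 points (-13.1 to -8.56) in CpG-rich promoter peaks and 36.2 points (34.9 to 37.5) in peaks with no protein-coding start site.

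Hexamers were concentrated near the peak centre. Among the members with a hexamer the nearest one lay at a median of 49.5 bp from the centre, and within 100 bp in 74.4%. The density within 20 bp of the centre was 2.87 hexamers per kb, against 0.71 in CpG-rich promoter peaks and 0.88 in the windows. The highest density, 3.96 per kb, was reached 20 to 40 bp from the centre on the side of higher coordinates. The nearest hexamer lay on that side in 64.2% of members (61.1 to 67.2), with a median offset of 23.5 bp, and the offset was present for genes on the plus strand (19 bp) and on the minus strand (27 bp) and in peaks with no protein-coding start site (16 bp). In CpG-rich promoter peaks the nearest hexamer lay on that side in 54.6% (50.9 to 58.2), with a median offset of 16 bp that was 48 bp for hexamers read as TGTGGT and -19 bp for those read as ACCACA on the plus strand, where members had 22 and 26 bp. Whether the centres themselves are displaced was not tested.

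**Figure D4:**
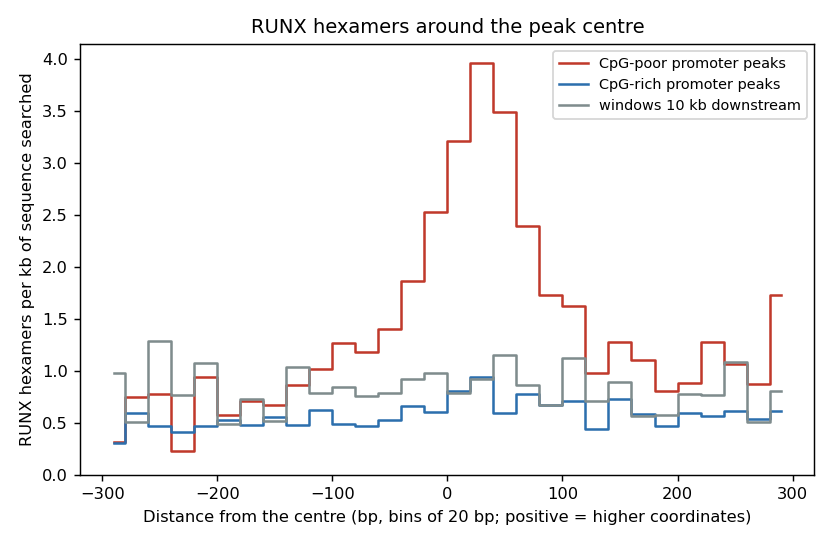
RUNX hexamers per kb of sequence searched (y axis) by distance from the centre (x axis, bins of 20 bp, positive towards higher coordinates) in CpG-poor promoter peaks, CpG-rich promoter peaks and windows 10 kb downstream of the CpG-poor promoter peaks. The CpG-poor curve peaks at 3.96 per kb in the bin from 20 to 40 bp. Within 300 bp of the centre the CpG-rich curve reaches at most 0.94 per kb, in the same bin, and the windows at most 1.29 per kb, between -260 and -240 bp.

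Members with more hexamers had higher scores and were wider. The median score was 9.84 in the 886 members without a hexamer, 12.7 in 677 with 1, 15.0 in 188 with 2 and 22.5 in 69 with 3 or more, and the median widths were 378, 426, 449 and 622 bp. The upper quartile of score was reached by 30.2% of members with a hexamer and 17.7% of those without (difference 12.5 points, 8.57 to 16.3). A higher median score was not particular to the hexamer. It was found with each of the 13 motifs counted, and a greater median width with all but the NF-kappaB motif. Median scores with and without the TATA letters TATAAA were 17.32 and 10.98. For the C/EBP letters TTGCNNAA they were 16.53 and 10.63, for the NF-kappaB motif 13.06 and 11.24, and for the hexamer 14.2 and 9.84. To hold the width constant, the central 200 bp alone were searched: the hexamer was then found in 30.8% (26.7 to 35.2) of members in the lowest quartile of score and in 43.3% (38.7 to 48.0) of those in the highest, and in 7.18% (5.48 to 9.37) and 16.5% (13.95 to 19.4) of CpG-rich promoter peaks.

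Of the members with 3 or more hexamers 49.3% reached the upper quartile of score, against 27.2% of those with 1 (difference 22.1 points, 10.1 to 34.1), and single members departed from this order. The member with the most, 7 in 302 bp, was 1 of the peaks of Unc93b1 and had a score of 5.26. Kcnn4, a calcium-activated potassium channel of lymphocytes, had 6 in 364 bp and a score of 12.7. The members of Stat3 (score 146) and Lig1, the replicative DNA ligase (84.6), each held 5. When any base was allowed at the third position (TGNGGT, which includes TGTGGT), 83.1% of members (81.3 to 84.8) had a match, against 68.2% of CpG-rich promoter peaks and 60.02% of the windows. A match was found in 81.7% of all peaks, a share inside the interval of the members, and in 86.5% of peaks with no protein-coding start site. All promoters of 300 bp, which are narrower than most peaks, held a match in 43.8%. The 307 members with neither had a median score of 8.49.

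The group of members that met both composition limits held the hexamer most often, in 61.7%, against 36.2% with the GC limit alone (difference 25.4 points, 19.8 to 30.8) and 44.4% with the CpG limit alone (17.2 points, 11.6 to 22.7). The share was 54.5% at CpG-poor and 44.3% at CpG-rich start sites (10.1 points, 5.18 to 15.0), and 46.9% at exact gene starts and 56.8% at other start sites (-9.97 points, -14.5 to -5.35). With the tolerance of 100 bp the last shares were 47.01% and 58.5%. The shares at or above the upper quartile of score differed between none of these pairs beyond counting error; the intervals of the 4 differences all included 0 and lay within -8.25 and 6.54 points.

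Motifs of other factors were counted on both strands of the whole peak, and a match is a run of letters, not a shown site. The PU.1 letters GAGGAAG were in 31.3% of members (29.2 to 33.4), against 20.6% of CpG-rich promoter peaks (difference 10.6 points, 8.05 to 13.2), 15.8% of the windows and 13.5% of all promoters of 300 bp. Their share was 31.0% beside a RUNX hexamer and 31.5% without it, a difference of -0.44 points (-4.70 to 3.81). Peaks with no protein-coding start site held them more often, in 37.6% (difference -6.35 points, -8.65 to -3.98), and the share over the whole list was 32.7%. The AP-1 letters TGANTCA were in 11.8% of members, 5.40% of CpG-rich promoter peaks, 12.2% of the windows and 6.93% of all promoters, with 16.5% of peaks with no protein-coding start site and 13.2% of all peaks. The C/EBP letters TTGCNNAA were in 18.2% of members (16.5 to 20.03) and 16.4% of the windows (14.8 to 18.2), intervals that overlap. Their share was 10.8% in CpG-rich promoter peaks, 17.7% in peaks with no protein-coding start site, 16.1% in all peaks and 10.3% in all promoters.

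The combined ETS and IRF motif, known from sites bound by PU.1 with an IRF partner, was in 7.58% of members, 3.51% of CpG-rich promoter peaks and 4.37% of the windows, and the IRF motif, a tandem of its core, in 7.20%, 3.78% and 5.71%. The palindromic NF-kappaB motif was in 4.40%, 2.56% and 1.62%. Their shares over all promoters of 300 bp were 2.88%, 3.78% and 1.45%, and over all peaks 7.81%, 6.48% and 3.77%. Members were near the whole list for each of these motifs, with intervals (6.45 to 8.89, 6.10 to 8.48 and 3.55 to 5.44) that include its shares. Peaks with no protein-coding start site held them in 9.40%, 7.28% and 4.17%. Matches of the ETS, IRF and PU.1 motifs can overlap each other, and peaks are wider than these promoters, which raises the shares in peaks.

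The ETS letters CCGGAAG (11.3% of members), the CRE and zDC letters TGACGT (11.04%) and the SP/KLF letters GGGCGG (36.9%) contain a CpG, so that their lower shares than in CpG-rich promoter peaks (28.9%, 19.8% and 81.4%) are bound to the rule. CpG-poor gene starts with and without a peak also differed in composition, with a median GC content of 52.3% and 48.7% and a median CpG ratio of 0.56 and 0.25, and the part of this in the shares that follow was not tested. Of the 300 bp of CpG-poor gene starts with a peak, 15.9% held the ETS letters, against 4.33% of those without (difference 11.6 points, 9.88 to 13.5), 39.4% against 19.1% the SP/KLF letters (20.4 points, 17.96 to 22.8) and 11.5% against 4.92% the CRE and zDC letters (6.54 points, 5.05 to 8.19). Their shares over all promoters were 10.8%, 43.4% and 8.56%. The RUNX hexamer itself was in 20.8% of bound and 18.6% of unbound CpG-poor gene starts (2.23 points, 0.22 to 4.35), where 15.3% of all promoters held it. The PU.1 letters were in 15.9% of bound and 14.2% of unbound ones (1.76 points, -0.03 to 3.68), an interval that includes 0. For the C/EBP letters the shares were 12.4% and 13.2% (-0.79 points, -2.40 to 0.98). AP-1 letters were less frequent at bound starts, at 6.80% and 9.68% (-2.87 points, -4.11 to -1.47).

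The TATA letters TATAAA were less frequent at bound than at unbound CpG-poor gene starts, at 11.3% and 20.2% (-8.94 points, -10.5 to -7.19), against 13.4% of all promoters. In members they were in 14.5%, against 6.07% of CpG-rich promoter peaks and 26.8% of the windows. They were in 15.5% of all peaks and 19.2% of peaks with no protein-coding start site. Placed as a TATA box, 40 to 20 bp upstream of the start, they were found at 13 of 1676 bound CpG-poor gene starts (0.78%) and 459 of 12319 unbound ones (3.73%), a difference of -2.95 points (-3.43 to -2.32). Among the members themselves 16 of 1820 (0.88%, 0.54 to 1.42) had a TATA box at the nearest start site, against 27 of 2965 CpG-rich promoter peaks (0.91%, 0.63 to 1.32) and 2.38% of all gene starts. They included that of Cd69, an early activation receptor. The NF-Y letters CCAAT were in 43.6% of members, 46.4% of CpG-rich promoter peaks, 44.0% of the windows and 37.9% of promoters. Their share was 41.7% over all peaks and 39.1% in peaks with no protein-coding start site.

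Gene lists were read by the share of their genes with a member, beside the 7.43% of all protein-coding genes. Because genes with CpG-rich start sites have fewer chances to hold a member, the share of each list's CpG-poor gene starts with a peak of any class is given too, beside the 11.97% over all CpG-poor gene starts. With olfactory and vomeronasal receptor genes (Olfr, Vmn1r and Vmn2r) left out, this background was 13.3% (12.7 to 13.9). The lists were chosen with earlier results of these data known, and no test was made.

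Genes of MHC-II presentation had the highest share: 8 of 13 had a member (61.5%, 35.5 to 82.3), and none had a CpG-rich promoter peak. All 13 have CpG-poor gene starts, and 7 of these had a peak (53.8%, 29.1 to 76.8). With scores at or above the median of the list 4 of the 13 remained. Ciita, the transactivator of MHC-II genes, had a member with a score of 91.3 at chr16:10487758-10488408, in an intron and 188 bp upstream of an alternative start site, which held 3 hexamers, and another with a score of 7.20. Cd74, the invariant chain, scored 44.2 and H2-DMb2, a chain of the peptide-exchange factor, 21.7. The classical chains were low: H2-Eb1 had scores of 14.2 and 4.79, H2-Ab1 of 4.23 and H2-Aa of 3.39, all but the first below the lower quartile of the list (7.20). H2-DMa and H2-Oa scored 8.49 and 6.57. Rfx5, a factor that binds MHC-II promoters and is not on the list, was chosen after its values were seen: its member had a score of 104.5 and 1 hexamer.

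MHC-I genes were spread over the classes of promoter peak. A CpG-poor peak was found at 5 of 26 (19.2%, 8.51 to 37.9), a CpG-rich one also at 5, and a divergent one at 6. H2-Q7 had the highest score (31.0), followed by H2-M3 (10.5), Tapbp, the tapasin of peptide loading (7.20), B2m, the MHC-I light chain (5.96), and Calr, a chaperone (4.73). Of the CpG-poor gene starts of the MHC-I list 10 of 21 had a peak of any class (47.6%, 28.3 to 67.6). This interval overlaps that of the MHC-II list (53.8%, 29.1 to 76.8).

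Leukocyte receptors had members and no CpG-rich promoter peaks in the next 3 lists. For C-type lectin receptors the count was 7 of 35 (20%, 10.04 to 35.9). Clec4a1 and Clec4a4, paired receptors of the Dcir family, scored 75.1 and 35.2, Clec12a, an inhibitory receptor, 58.6, and Cd69, found on activated leukocytes of many kinds, 29.2, while Clec4a2 (17.3), Clec2i (7.84) and Clec2d (5.30) were lower. Fc receptors counted 5 of 14 (35.7%, 16.3 to 61.2): Fcrl1, a receptor known from B cells, had 4 hexamers in a peak of 1177 bp with a score of 51.1, Fcrl5 scored 23.2, Fcer1g, the shared signalling chain, 21.5, Fcgr4, an activating receptor of IgG, 5.26, and Fcrls 4.73.

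Paired immunoglobulin-like receptors and their adaptors counted 9 of 42 (21.4%, 11.7 to 35.9). Cd300lf led with 129, Cd33, an inhibitory sialic acid-binding receptor, scored 29.5 and Trem1, an activating receptor, 28.6. Tyrobp, the DAP12 adaptor, scored 15.3 and Sirpa, the receptor of CD47 that marks CD4+ DC, 11.7. Nearly all of their gene starts are CpG-poor (34 of 35, 13 of 14 and 42 of 42), and the shares of these starts with a peak were 14.7%, 38.5% and 21.4%, against 11.97% over all CpG-poor gene starts; the intervals of the lectin and paired receptor lists (6.45 to 30.1 and 11.7 to 35.9) include that value.

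Leukocyte integrins counted 6 of 14 (42.9%, 21.4 to 67.4). Itgb7, the beta7 chain, had the highest score (31.4), followed by Itgam, the CD11b chain (26.7 at its start site and 6.45 in an intron), and Itga4, the alpha4 chain (24.1). Itgb3 scored 18.1, Itgb2, the CD18 chain that pairs with CD11b and CD11c, 17.3, and Itgax, the CD11c chain by which the cells were sorted, 10.3 and 7.89. Of their 9 CpG-poor gene starts 5 had a peak (55.6%, 26.7 to 81.1). Chemoattractant receptors counted 6 of 33 (18.2%, 8.61 to 34.4). Cxcr3 scored 37.1 and held 3 hexamers, and Ccr7, the receptor that guides dendritic cells to lymph nodes, scored 17.3. Cx3cr1, the fractalkine receptor, scored 10.5, and Gpr183, the oxysterol receptor that positions splenic CD4+ DC, 7.84. Ccr6 and Ccr1 were lower still, at 7.20 and 6.57. A peak was found at 6 of their 32 CpG-poor gene starts (18.8%, 8.89 to 35.3), an interval that includes 11.97%.

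Toll-like receptors and their partners counted 7 of 21 (33.3%, 17.2 to 54.6). Ly96, the MD-2 partner of TLR4, scored 49.7 with 3 hexamers, Tlr2 23.4, Tlr9 15.0 and Tlr4 6.57, and Ly86 and Tlr6 scored 6.57 and 5.30. A peak was found at 7 of their 19 CpG-poor gene starts (36.8%, 19.1 to 59.0). The list of costimulatory and coinhibitory genes counted 10 of 24 (41.7%, 24.5 to 61.2). Among them Havcr2, which encodes TIM-3, scored 42.4, the tetraspanin Cd37 23.8, Cd244 17.3, Cd40 14.2 and Cd86, a ligand of CD28, 13.6. Pvrl2 (9.84) and Cd53 (9.16) were below the class median. Among the CpG-poor gene starts of the list, 8 of 18 had a peak (44.4%, 24.6 to 66.3). The list also holds tetraspanins, and Cd37, Cd82 and Cd53 are among its 10 genes with a member. Neither share is therefore that of costimulatory and coinhibitory genes alone.

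Cytokine and growth factor receptors counted 12 of 52 (23.1%, 13.7 to 36.1), and 7 had a CpG-rich promoter peak. Ifngr2 and Il12rb2, a chain of the IL-12 receptor, both scored 59.1, Kit, the receptor of stem cell factor, 32.3, and Il1r2, the decoy receptor of IL-1, 27.5. Il21r (15.7) and Il2ra (14.1) were closer to the class median. Among the CpG-poor gene starts of these receptors, 8 of 34 had a peak (23.5%, 12.4 to 39.996). Flt3, the receptor on which dendritic cell development depends, and Rbpj, the effector of Notch signals, had no member. By the share of genes with a member, secreted ligands were near the 7.43% of all genes. Cytokines counted 3 of 50 (6.00%, 2.06 to 16.2) and chemokine ligands 2 of 34 (5.88%, 1.63 to 19.1). The latter were Ccl3 (13.1) and Ccl4 (9.84), and the cytokines were Il16 (13.4), Tnfsf8 (5.36) and Csf1 (2.67). By CpG-poor gene starts with a peak, cytokines were below the 11.97% over all such starts, at 1 of 47 (2.13%, 0.38 to 11.1). For chemokine ligands the share was 6.45% (1.79 to 20.7), an interval that includes 11.97%.

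Dendritic cell transcription factors were split between both kinds of promoter peak, with 12 of 36 in members (33.3%, 20.2 to 49.7) and 10 of 36 in CpG-rich ones. Within 500 bp of a start site the first count was 7. Of their CpG-poor gene starts 7 of 17 had a peak (41.2%, 21.6 to 64.0). Besides Runx1, Runx3 and Stat3, Sfpi1, the gene of PU.1, scored 99.3 with 3 hexamers in an intron, 570 bp downstream of a start site that lies 18 bp inside the gene. Relb, an NF-kappaB subunit of dendritic cell maturation, scored 25.3, Batf3 23.2, Bcl11a, a factor of lymphoid and plasmacytoid lineages, 16.5, and Id2, an inhibitor of E proteins, 12.1. In the RUNX family and Cbfb, 2 of 4 genes had a member, and 2 of the 3 CpG-poor gene starts had a peak. The second Runx3 member scored 11.2 and lay in an intron, 388 bp upstream of another start site.

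**Figure D5:**
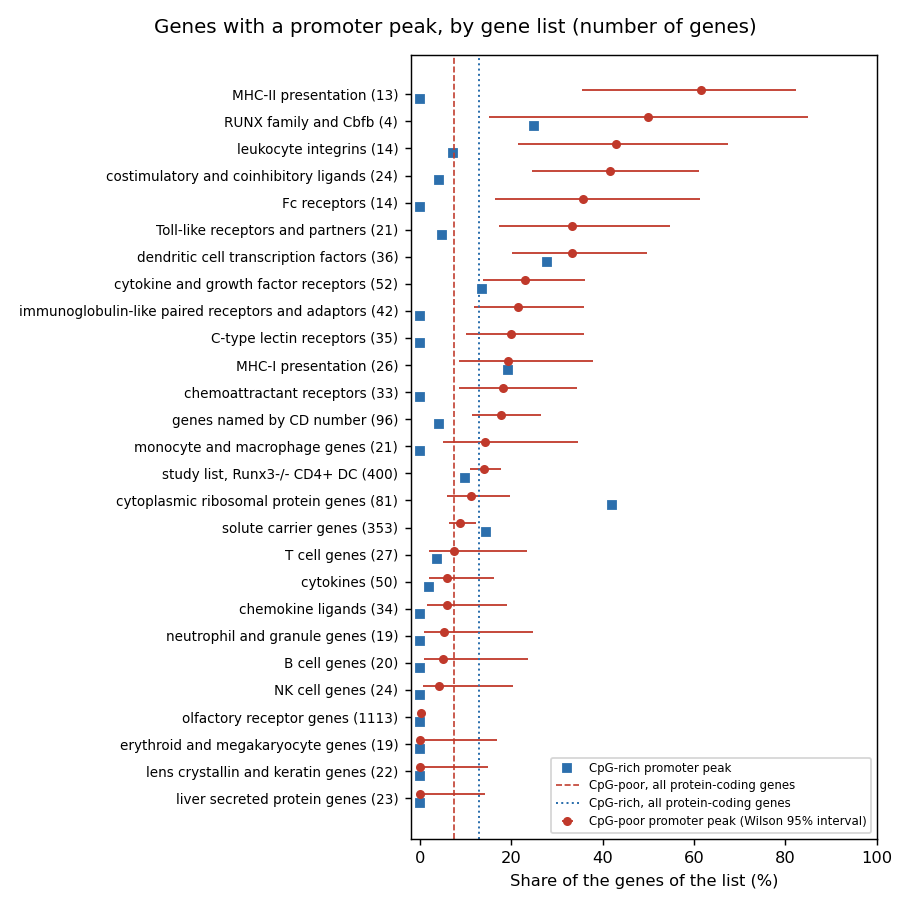
Share of the genes of each list (x axis, %) with a CpG-poor promoter peak (circles, with Wilson 95% intervals as bars) and with a CpG-rich promoter peak (squares), with the number of genes in parentheses. Dashed and dotted lines mark the shares over all protein-coding genes, 7.43% and 13%; MHC-II presentation stands highest at 61.5%, and the olfactory, erythroid, liver, crystallin and keratin lists lie at or near 0.

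In lists of other cell types the shares were lower than in the dendritic cell and receptor lists above, with at most 3 genes each. The intervals were wide, at 2.06 to 23.4% for T cell, 0.89 to 23.6% for B cell, 0.74 to 20.2% for NK cell and 0.94 to 24.6% for neutrophil genes. They overlap those of the C-type lectin (10.04 to 35.9%) and chemoattractant receptor lists (8.61 to 34.4%), so these counts do not separate the lists. T cell genes counted 2 of 27 (7.41%; Cd5 24.3 and Cd7 5.36), B cell genes 1 of 20 (Bank1, an adaptor of B cell signalling, 56.9), NK cell genes 1 of 24 (Klrd1, 15.5), neutrophil genes 1 of 19 (Mmp9, 3.69) and monocyte and macrophage genes 3 of 21 (14.3%, 4.98 to 34.6, which includes the background of 7.43%; Mertk 26.7, Cd68 14.8 and Cx3cr1 10.5). No member was found at 19 erythroid and megakaryocyte genes, 23 liver genes or 22 crystallin and keratin genes, for which the upper limits were 16.8%, 14.3% and 14.9%. Of the CpG-poor gene starts of the T cell list 8.00% had a peak, and the shares were 5.26% for B cells, 4.35% for NK cells, 5.56% for neutrophils and 11.1% for monocytes and macrophages. The erythroid, liver, and crystallin and keratin lists had none. Of 1113 olfactory receptor genes, all with CpG-poor gene starts, 3 had a member (0.27%, 0.09 to 0.79): Olfr1509 (17.8), Olfr432 (5.96) and Olfr110 (4.79).

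Ribosomal protein genes showed the opposite balance, with 9 of 81 in members (11.1%, 5.96 to 19.8) and 34 of 81 in CpG-rich promoter peaks (42.0%). The members of Rps3a (72.7), Rpl3 (19.8), Rpl7 (10.5) and Rps9 (7.84) met the GC limit alone, and 25 of their 42 CpG-poor gene starts (59.5%, 44.5 to 73.0) had a peak of any class. Solute carriers, a family of membrane transporters, counted 31 of 353 (8.78%, 6.26 to 12.2), an interval that includes 7.43%, with Slc2a3, a glucose transporter, at 94.4 and Slc25a23, a mitochondrial carrier, at 80.1. Of their CpG-poor gene starts 36 of 221 had a peak (16.3%, 12.005 to 21.7). The interval lay just above 11.97% and included the background of 13.3% without olfactory and vomeronasal receptor genes. Genes named by a CD number counted 17 of 96 (17.7%, 11.4 to 26.5), and 15 of their 85 CpG-poor gene starts had a peak (17.6%, 10.996 to 27.1).

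The study lists genes whose expression differed in Runx3-/- CD4+ DC, and these counted 56 of 400 in members (14%, 10.9 to 17.7) and 39 of 400 in CpG-rich promoter peaks (9.75%). That list was chosen by the study from expression in other samples, and it holds Runx3, the gene deleted in the mutant cells. Their highest scores were those of Runx3, Dhrs9 and Shisa5 (65.9), followed by Il12rb2 and Clec12a; Adam11 (50.0), Ly96 and Eef2k (42.1) came next. Of the CpG-poor gene starts of this list 40 of 239 had a peak (16.7%, 12.5 to 21.99), against 11.97% over all CpG-poor gene starts. The interval included the background of 13.3% without olfactory and vomeronasal receptor genes.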

How the data were processed

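Runx3 ChIP-seq was performed in splenic CD4+ DC with 2 immunoprecipitations and 2 input controls. Per the labels, fragments of about 300 bp were sequenced as reads of 50 bp, processed with CASAVA 1.8, aligned to mm9 with Bowtie and passed to MACS2. The study's methods give uniquely aligned reads as 1 total for the immunoprecipitations and 1 for the input. The depth of each library, the versions of Bowtie and MACS2 and the peak threshold are not given in the sources used here. The authors deposited 1 BED list with a score per peak, pooled over the libraries, with no column per sample, so the precision of a score is unknown.

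Start sites were all transcripts of protein-coding genes of GENCODE M1 (22367 genes, 78248 transcripts, chromosome M left out), and sequences came from NCBIM37. Composition, motifs on both strands, distances and gene lists were computed with Python 3.11.15, numpy 2.4.6 and pandas 2.3.3, and the scripts were tested on simulated data. Shares carry Wilson intervals and differences Newcombe intervals at 95%, for counting error only. No p-value was computed, since peaks are not replicates.

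The members, the 27 lists and the 13 motifs were chosen with earlier results of these data known. Named were the 12 highest scores, the 5 widest, the 5 with the most hexamers, up to 8 genes with the highest scores per list, genes with 3 or more members, the members nearest each limit, and the genes the study displayed. Not every gene that met this rule is printed, and 1 member and 1 sequence are not reported here. Older symbols were matched through RefSeq synonyms. Alternatives were other score limits, distances, composition limits, motifs and windows, and joining of peaks closer than 300 bp. The offset of hexamers, their strand and the shares by score were examined after seeing the data.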

Additional observations from a re-analysis of the deposited data

How the results depend on the processing

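The number of CpG-poor promoter peaks was 876 with scores at or above the median of the list, 439 at or above the upper quartile and 934 when both composition limits were required, and the genes they touched numbered 836, 425 and 861. Fewer peaks enter under these limits by construction. The share with the hexamer was 59.2%, 64.2% and 61.7% under them, 54.8% with start sites within 2 kb, 38.0% in the central 200 bp, and 83.1% for TGNGGT. The difference in hexamer share between CpG-poor and CpG-rich promoter peaks stayed above 0 in the 12 alternatives run, between 14.9 points (TGNGGT) and 34.0 points (both limits), and that to the windows in 4 alternatives, between 17.4 points (upstream windows) and 23.4 points (upper quartile of score). With start sites up to 100 bp from the outermost one counted with it, chosen after seeing the data, the difference in share at gene starts was -18.4 points and that in hexamer share -11.5 points. The difference in bound share lay between -28.4 and -8.10 points. Restriction to chromosomes 1-19, X and Y left no peak out, so this alternative could change no value. Of 270 counts for gene lists, 215 stayed within 1.5 times the reported count. That tally includes the counts under the chromosome restriction and those of lists with no member, which could not fall. MHC-II presentation kept 4 genes at or above the median score and 2 at or above the upper quartile, and dendritic cell transcription factors 7 with start sites within 500 bp.

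No paired analysis was possible because the list was called once over both replicates, and leaving out a replicate was not possible for the same reason. The depth of each single library and the unit of the score are not given in the sources used here, and whether each peak was present in both immunoprecipitations was not tested. A promoter without a peak is one that the list does not hold.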

Other observations

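The strand of the hexamer differed with its place. With 1 hexamer counted per member, the nearest to the centre, TGTGGT lay on the strand of the gene in 526 of 934 members (56.3%, 53.1 to 59.5). The share was 51.4% (47.2 to 55.5) where the centre was upstream of the start site and 63.6% (58.6 to 68.3) where it was at or downstream of it. In CpG-rich promoter peaks it was 55.9% (52.2 to 59.5), in the windows 53.6% (49.4 to 57.7), and in the 300 bp of CpG-poor gene starts without a peak 51.7% (49.7 to 53.8).

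By chromosome, members per 1000 protein-coding genes ranged from 37.6 on X to 122.8 on 11. The 35 members on X, among them Cxcr3, had a median score of 8.49, and 42.9% (28.0 to 59.1) held the hexamer. Chromosome X also had few peaks of any class, 179, of which 19.6% were CpG-poor promoter peaks, the highest share of any chromosome. Chromosome 7 had 184 members, or 17.6% of its peaks.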
